A study of Mus musculus with 2 samples.

Results

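Spp1, the gene of the secreted phosphoprotein osteopontin, and Cd44, the gene of a cell surface receptor that binds osteopontin and hyaluronan, were followed through mouse tumours grown from MC38 cells, a colorectal cancer line. They are 2 of the 34290 genes listed and were picked out by symbol, with their levels in these libraries already known. Their difference between the libraries is therefore a description. Tumours were taken 21 days after engraftment and profiled by droplet single-cell RNA sequencing with a 3′ chemistry (10x Genomics kit version 3.1). There were 2 libraries, 1 per group. In the TMEM16F KO group the engrafted MC38 cells lacked TMEM16F, an Ano6-encoded phospholipid scramblase. In the vector control group the engrafted cells carried a vector only. The mice themselves were untreated, and neither their strain and age nor the number of mice and knockout clones behind a library is given in the sources used here. Since each group is a single library, no test was possible, and effects of the genotype, of single tumours and of their dissociation cannot be told apart. All intervals below are exact, at 95%, and cover counting error only.

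Osteopontin is made by macrophages, bone cells, epithelia and activated lymphocytes, and it carries an RGD sequence that integrins bind. Thrombin and matrix metalloproteinases cleave it and expose further integrin sites, and CD44 binds it or its fragments at the cell surface. In tumours, macrophages with high Spp1 are commonly set apart from macrophages with high complement C1q genes. CD44 is also the standard surface marker of antigen-experienced T cells.

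There were 5993 TMEM16F KO barcodes carrying 49777630 UMIs and 5253 vector control barcodes carrying 46338994 UMIs. The study states 10782 cells where the files hold 11246 barcodes. Barcodes showing 200 genes or more and a mitochondrial share below 20% were kept, which left 5975 TMEM16F KO and 5249 vector control cells with medians of 6207 and 6239 UMIs. Of these, 840 TMEM16F KO and 1050 vector control cells were under 2000 UMIs, and the libraries shared 10 barcodes. Kept cells were sorted into classes by marker UMIs, with neither member among the markers; all 12 macrophage markers were seen in at least 10% of macrophage-like cells. The series text speaks of tumour-infiltrating lymphocytes, but macrophage-like, monocyte-like and unresolved phagocyte-like cells together made up 48.2% of TMEM16F KO and 53.3% of vector control cells. Epithelial transcripts were scarce: 11 epithelial markers summed to 18.8 CPM in TMEM16F KO and 30.02 CPM in vector control cells, with 3 and 6 of the markers at 0. No marker particular to MC38 cells was used, so the number of tumour cells, also within the stroma-like class, was not determined. Krt8 had 2 UMIs in TMEM16F KO and 0 in vector control cells, Krt19 had 0 in both, and Epcam had 276 and 298. Ano6 stood at 33.5 CPM in TMEM16F KO and 28.7 CPM in vector control cells over all cells kept, and at 39.2 and 56.4 CPM in stroma-like cells, a ratio of 0.69 (0.39 to 1.17). Neither value checks the deletion, which concerns the engrafted tumour cells, since these were not identified among the classes. CPM is the UMIs of a gene per 1000000 UMIs of the cells summed.

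Spp1 (ENSMUSG00000029304) lies on the plus strand of chromosome 5, at 104435118 to 104441050 (GRCm38, GENCODE M21), with 7 protein-coding transcripts of 4 to 8 exons. Of the other genes of its family, Ibsp, Dspp and Mepe had 0 UMIs in either library, and Dmp1 had 1 UMI in TMEM16F KO cells and 0 in vector control cells. Cd44 (ENSMUSG00000005087) lies on the minus strand of chromosome 2, at 102811141 to 102901665, with 8 protein-coding transcripts of 9 to 19 exons. Counting at the 3′ end cannot separate its splice forms. Both promoters, from 250 bases before to 50 after the annotated start, are shown because both genes stood higher in macrophage-like cells of the TMEM16F KO tumours. Both matched the RefSeq promoter table (GRCm38.p6), and capitals mark the letters of a searched motif on either strand.
Spp1, chr5:104434861-104435160, plus strand: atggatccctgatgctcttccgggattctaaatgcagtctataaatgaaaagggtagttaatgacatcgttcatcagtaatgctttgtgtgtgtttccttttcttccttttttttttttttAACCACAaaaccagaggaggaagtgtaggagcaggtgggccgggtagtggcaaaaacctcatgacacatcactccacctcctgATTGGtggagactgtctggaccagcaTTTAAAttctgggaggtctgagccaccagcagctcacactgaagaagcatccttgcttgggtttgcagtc
Cd44, chr2:102901616-102901915, minus strand: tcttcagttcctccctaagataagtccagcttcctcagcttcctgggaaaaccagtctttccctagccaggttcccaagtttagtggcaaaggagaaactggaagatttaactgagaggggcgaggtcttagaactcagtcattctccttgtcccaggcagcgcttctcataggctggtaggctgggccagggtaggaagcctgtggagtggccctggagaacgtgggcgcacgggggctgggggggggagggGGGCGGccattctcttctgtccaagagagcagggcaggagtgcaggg

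The Spp1 window held the RUNX letters AACCACA at -129, ATTGG, the reverse complement of CCAAT, at -46 and TTTAAA at -20, counting the annotated start as 0. These letters occurred on either strand in 5.27%, 37.4% and 13.2% of the 32851 promoters of this length. The Cd44 window held GGGCGG, the letters of an Sp1-type GC box, at +3, which 35.7% of promoters held. The letters TGANTCA (AP-1) and CACGTG (E-box), held by 7.81% and 7.15% of promoters, were in neither window. GC content was 45.3% for Spp1 and 58% for Cd44. A match is a description and not a binding site.

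Spp1 was a gene of the phagocytes in both tumours, and it stood higher in the TMEM16F KO tumour. Over all kept cells it had 238153 UMIs in TMEM16F KO and 124424 in vector control cells, or 4786 and 2685 CPM, a ratio of 1.78 (1.77 to 1.79). Among the 9564 genes at 5 CPM or more in either library, 2.84% stood at least 1.5-fold higher and 3.94% at least 1.5-fold lower in TMEM16F KO cells. Macrophage-like cells, defined by C1q and other macrophage genes, held 56.2% of all Spp1 UMIs in TMEM16F KO and 56.6% in vector control cells, and the phagocyte classes together held 76.7% and 79.0%. The level of a tissue follows both the number of cells of a type and the RNA per cell. Here the ratio was present within the macrophage-like class, although that class was a smaller share of TMEM16F KO cells, 27.6% against 36.2% in the vector control.

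Macrophage-like cells had 7469 CPM of Spp1 in the TMEM16F KO tumour (7429 to 7509, 1652 cells) and 3596 CPM in the vector control tumour (3569 to 3622, 1901 cells). The ratio was 2.08 (2.06 to 2.10). In this class 4.05% of 8945 genes were 1.5-fold higher and 3.82% lower, a contrast that led to the choice of the gene. Monocyte-like cells, led by Chil3, Plac8 and Hp, had 4500 CPM in TMEM16F KO and 3667 CPM in vector control cells, a ratio of 1.23 (1.20 to 1.25), in a class where 6.69% of genes were 1.5-fold higher and 3.49% lower. Unresolved phagocyte-like cells, led by Cxcl3, Mmp8, Mmp12 and Gpnmb, had 6625 CPM in TMEM16F KO and 5543 CPM in vector control cells, a ratio of 1.20 (1.17 to 1.22), where 14.5% of genes were 1.5-fold higher and 6.02% lower. The macrophage-like class was thus first in order of Spp1 among TMEM16F KO classes. Among vector control classes the unresolved one came first, followed by NK-like cells, whose level is taken up further on, and the intervals of monocyte-like and macrophage-like cells overlapped.

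Apart from NK-like cells, the other classes lay lower. CD8 T-like cells had 1437 CPM in TMEM16F KO and 850 CPM in vector control cells, a ratio of 1.69 (1.64 to 1.75), where 5.91% of genes were 1.5-fold higher and 5.84% lower. DC-like cells, led by the mature dendritic genes Fscn1, Ccl22 and Ccr7, had 1402 CPM in TMEM16F KO and 452 CPM in vector control cells, a ratio of 3.1 (2.79 to 3.46), where 16.3% of genes were 1.5-fold higher and 13.5% lower. That ratio was 1.88 without the 3 cells richest in Spp1 of each library, of 78 TMEM16F KO and 79 vector control cells. Treg-like cells had 784 CPM in TMEM16F KO and 271 CPM in vector control cells, a ratio of 2.90 (2.50 to 3.37), where 14.7% of genes were 1.5-fold higher and 13.3% lower. CD4 T-like cells had 592 CPM in TMEM16F KO and 556 CPM in vector control cells, a ratio of 1.07 (0.89 to 1.28), where 30.6% of genes were 1.5-fold higher and 18.3% lower. These classes hold few cells, and many of their genes passed 1.5-fold in either direction. T-like cells with no clear subset, led by Trdc, Klra7, Cd7 and Tcf7, held markers of other classes among their leading genes and were not compared; they had 1256 CPM in TMEM16F KO and 581 CPM in vector control cells. Neutrophil-like cells (43 TMEM16F KO, 19 vector control) and stroma-like cells (27 and 62) were too few to compare, with 702 and 1349 CPM in neutrophil-like cells and 1657 and 1589 CPM in stroma-like cells. Barcodes with markers of more than 1 lineage held a further 14.3% of the Spp1 UMIs in TMEM16F KO and 8.93% in vector control cells.

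**Figure D1:**
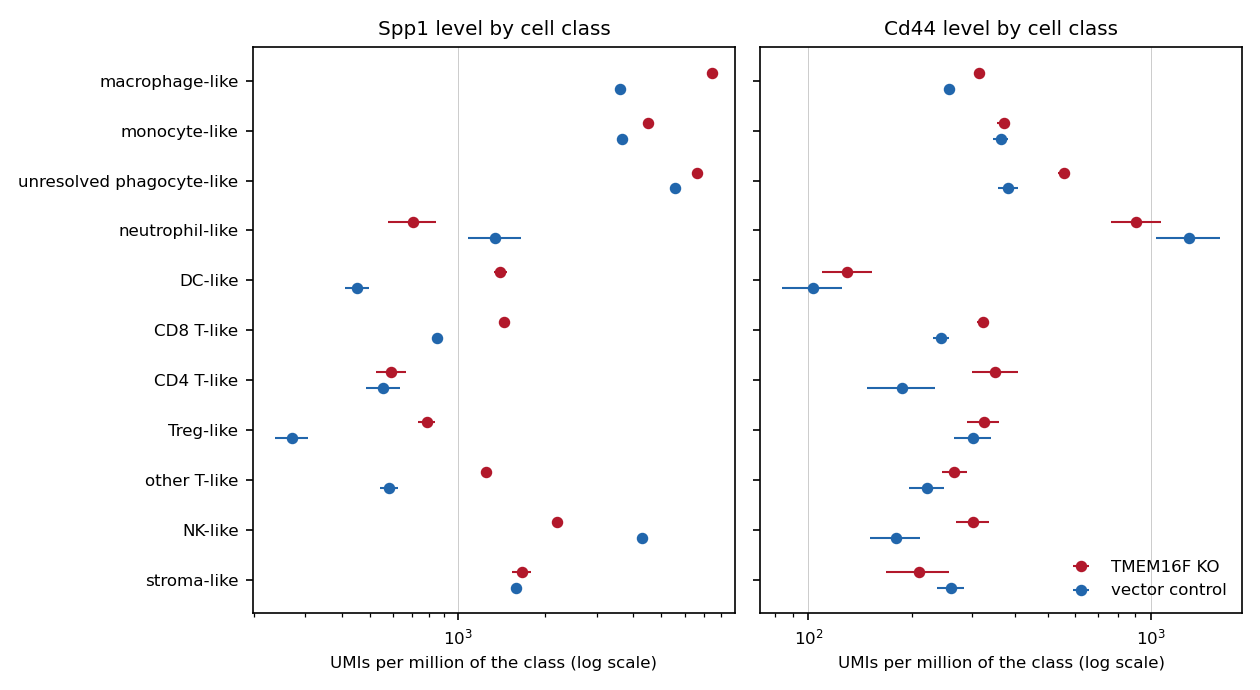
Spp1 (left) and Cd44 (right) in each cell class, as CPM on a log axis, with TMEM16F KO in red above vector control in blue; bars are exact 95% Poisson intervals (counting error only). Spp1 was highest in the 3 phagocyte classes, apart from 4276 CPM in vector control NK-like cells, and Cd44 was highest in neutrophil-like cells in both libraries.

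Spp1 varied widely among macrophage-like cells of the same tumour, and the whole distribution lay higher in the TMEM16F KO tumour. The median cell held 21.6 Spp1 UMIs per 10000 in TMEM16F KO and 11.4 in vector control cells. The 90th percentile was 152 in TMEM16F KO and 82.3 in vector control cells, and the 10th percentile was 3.30 and 0. From the 15th to the 95th percentile the TMEM16F KO value was 1.66 to 2.53 times the vector control value. Cells with at least 50 per 10000 made up 31.7% (29.4 to 34.0) of TMEM16F KO and 17.5% (15.8 to 19.3) of vector control macrophage-like cells. Above 200 per 10000 the shares were 6.48% (5.34 to 7.77) and 2.68% (2.00 to 3.51). The 10% of cells richest in Spp1 held 61.7% of its UMIs in the class in TMEM16F KO and 65.9% in vector control cells. Leaving out the 3 richest cells of each library gave a ratio of 2.12.

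**Figure D2:**
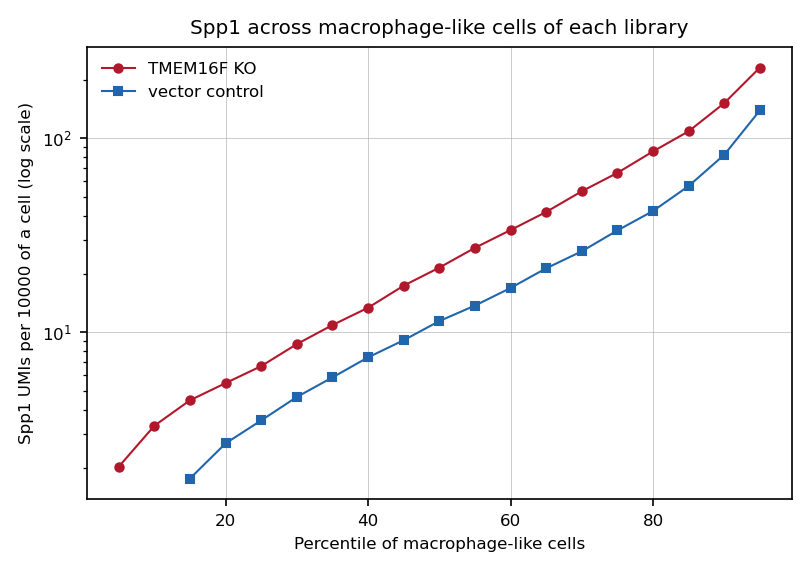
Spp1 UMIs per 10000 UMIs of a cell (log axis) at percentiles 5 to 95 of the macrophage-like cells, TMEM16F KO (red circles) and vector control (blue squares); vector control values of 0 at the 5th and 10th percentile are not drawn. The TMEM16F KO curve lies above the vector control curve at each percentile drawn, with medians of 21.6 and 11.4.

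The size of the Spp1 difference depended on the cells compared. In macrophage-like cells of under 4000 UMIs, Spp1 stood at 3817 CPM in TMEM16F KO and 3153 CPM in vector control cells, a ratio of 1.21. In cells of 16000 UMIs or more it stood at 10766 CPM in TMEM16F KO and 4329 CPM in vector control cells, a ratio of 2.49, and the cells in between gave 1.24 and 1.97. Cells of under 4000 UMIs were 15.4% of TMEM16F KO and 31.1% of vector control cells of the class, and the part of depth in the result was not tested beyond these bins and a thinning to 2000 UMIs per cell, which gave 1.81. The difference also varied with C1q, the sum of C1qa, C1qb and C1qc. At 40 to 80 C1q UMIs per 10000, Spp1 stood at 6630 CPM in TMEM16F KO and 5361 CPM in vector control cells, a ratio of 1.24. At 120 to 200 it stood at 8296 CPM in TMEM16F KO and 2858 CPM in vector control cells, a ratio of 2.90, and the bins at 80 to 120 and from 200 gave 2.20 and 2.30. In vector control cells Spp1 was thus lower where C1q was higher, while in TMEM16F KO cells it stayed between 6017 and 8296 CPM in the 4 bins. Cells with a UMI of Mrc1, the mannose receptor of tissue macrophages, had 8832 CPM of Spp1 in TMEM16F KO and 3965 CPM in vector control cells, a ratio of 2.23, and cells without had 3906 and 2581 CPM, a ratio of 1.51. Cells with UMIs of fewer than 3 of 12 cell cycle genes, a count that depends on depth, had 5077 CPM in TMEM16F KO and 4902 CPM in vector control cells, a ratio of 1.04. Cells with 3 or more had 7799 and 3484 CPM, a ratio of 2.24.

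Spp1 RNA was also found in most lymphocytes, where droplet data carry free RNA of other cells. After thinning to 2000 UMIs, 70.3% of CD8 T-like and 72.9% of Treg-like cells of the TMEM16F KO tumour had a Spp1 UMI, against 42.5% and 35.2% in the vector control tumour, and 87.6% of TMEM16F KO and 75.1% of vector control macrophage-like cells had one. Thinning left out 20 TMEM16F KO and 24 vector control CD8 T-like cells, 16 and 9 Treg-like cells, and 124 and 373 macrophage-like cells. Unthinned, the shares were 93.2% of TMEM16F KO and 75.6% of vector control CD8 T-like cells, 92.2% and 56.2% of Treg-like cells, and 97.8% and 89.6% of macrophage-like cells. Free RNA of 1 source keeps its genes in 1 ratio, so Spp1 was set against the C1q genes, which lymphocytes do not make. Over all kept cells there were 0.79 Spp1 UMIs per C1q UMI in TMEM16F KO and 0.39 in vector control cells. CD4 T-like cells had 0.83 and 0.67, and Treg-like cells 1.08 and 0.30, in TMEM16F KO and vector control cells. CD8 T-like cells had 1.70 in TMEM16F KO and 1.17 in vector control cells, DC-like cells 2.35 and 1.06, and NK-like cells 4.03 and 6.37. Treg-like vector control cells lay below the value over all cells and the other classes named here above it. How much of the Spp1 RNA in each lymphocyte class was free RNA was not tested.

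A small set of CD8 T-like cells carried much of the Spp1 RNA of its class. Cells with at least 50 Spp1 UMIs per 10000 numbered 49 of 942 in the TMEM16F KO tumour (5.20%, 3.87 to 6.82) and 15 of 708 in the vector control tumour (2.12%, 1.19 to 3.47). They held 41.5% of the Spp1 UMIs of the class in TMEM16F KO and 36.5% in vector control cells. Their C1q level was 752 CPM in TMEM16F KO and 438 CPM in vector control cells, against 850 and 736 CPM in the other CD8 T-like cells. Lyz2, another phagocyte gene, stood at 1100 CPM in TMEM16F KO and 471 CPM in vector control cells of the set, against 884 and 473 CPM in the others. In TMEM16F KO cells the set was thus lower in C1q and higher in Lyz2 than the rest, and in vector control cells it was lower in C1q and close in Lyz2. Cells were classed as T-like only with under 60 phagocyte-marker UMIs per 10000, Lyz2 among those markers. Phagocyte RNA in the set was therefore capped by the sorting, and these levels cannot show how much of it was carried over. Of 13 measured companions of Spp1 in macrophages, 7 were 1.5-fold higher in TMEM16F KO than in vector control CD8 T-like cells and 0 lower, where 5.91% of all genes were higher and 5.84% lower, and of 10 C1q programme genes 1 was higher and 0 lower; the part of macrophage RNA in these levels was not tested. Over all CD8 T-like cells the genes most like Spp1 were granzymes and a granzyme inhibitor. Pearson r over the cells, on log-scaled values, was 0.33 in 942 TMEM16F KO and 0.38 in 708 vector control cells for Gzmd, 0.31 and 0.35 for Gzme, and 0.26 and 0.27 for Serpinb9b. These were the 3 genes of 7849 (0.0382%) with r of at least 0.25 in both libraries. Granzymes are the proteases of cytotoxic granules, and Gzmc to Gzmg are close copies of each other whose reads may be shared.

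In NK-like cells Spp1 stood lower in the TMEM16F KO tumour, at 2188 CPM (155 cells) against 4276 CPM in the vector control tumour (92 cells), a ratio of 0.51 (0.49 to 0.54), where 20.2% of genes were 1.5-fold higher and 15.6% lower. This value rested on few cells. A single vector control cell held 1980 of the 3397 Spp1 UMIs of its class, and without the richest cell of each library the ratio was 0.95. Without the 3 richest of each it was 1.16, and under a stricter marker gate 1.23. The median NK-like cell had 6.13 Spp1 UMIs per 10000 in TMEM16F KO and 2.85 in vector control cells. Cells with at least 50 per 10000 numbered 8 in TMEM16F KO and 6 in vector control cells, and they held 61.9% and 84.4% of the Spp1 UMIs. Here too the genes most like Spp1 were granzymes, with r of 0.52 in TMEM16F KO and 0.58 in vector control cells for Gzme and 0.51 and 0.64 for Gzmd. In all, 29 of 7543 genes (0.384%) reached 0.25 in both libraries and 2 (0.0265%) lay as far below 0, over only 155 TMEM16F KO and 92 vector control cells that differ in depth.

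Over macrophage-like cells, Arg1 was the gene most like Spp1 by the lower of the values of both tumours. Of 8253 genes seen in at least 5% of the cells of each library, 21 (0.254%) had r of at least 0.25 with Spp1 in both, over 1652 TMEM16F KO and 1901 vector control cells. Arg1, the enzyme that breaks down arginine, led with 0.54 in TMEM16F KO and 0.43 in vector control cells. Lgals3, the lectin galectin-3, came next with 0.42 and 0.42, followed by the lysozyme gene Lyz2, the tetraspanin gene Cd9 and the elastase gene Mmp12. Fn1, the matrix protein fibronectin, had 0.54 in TMEM16F KO and 0.37 in vector control cells. After it came the annexin gene Anxa1, the cathepsin gene Ctsl, the chemokine gene Ccl6, the filament gene Vim and the annexin gene Anxa2. Srgn, S100a6 and the glycolysis genes Gapdh and Pgk1 completed the 15 highest, which ranged from 0.27 to 0.54. Aldoa, Ldha and Pgam1, also of glycolysis, F7, Pdpn and S100a4 were the others of the 21. Across all genes the r values of the libraries correlated at 0.69. Cells of 1 library share depth and free RNA, and the r of Spp1 with the log of a cell's UMI total was 0.25 in TMEM16F KO and 0.11 in vector control cells.

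Fewer genes ran opposite to Spp1. Aif1, which encodes an actin-binding protein of macrophages, had r of -0.31 in TMEM16F KO and -0.26 in vector control cells, the only gene (0.0121%) at least 0.25 below 0 in both. Cxcl9, an interferon-induced chemokine that draws T cells, had -0.20 and -0.22, and Vcam1, an adhesion molecule, -0.24 and -0.21. Isg15 and Oasl1, both interferon-induced, Ppp1r15a, Tmem176a, Tmem176b, Lst1 and AW112010 were the others of the 10 most negative.

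**Figure D3:**
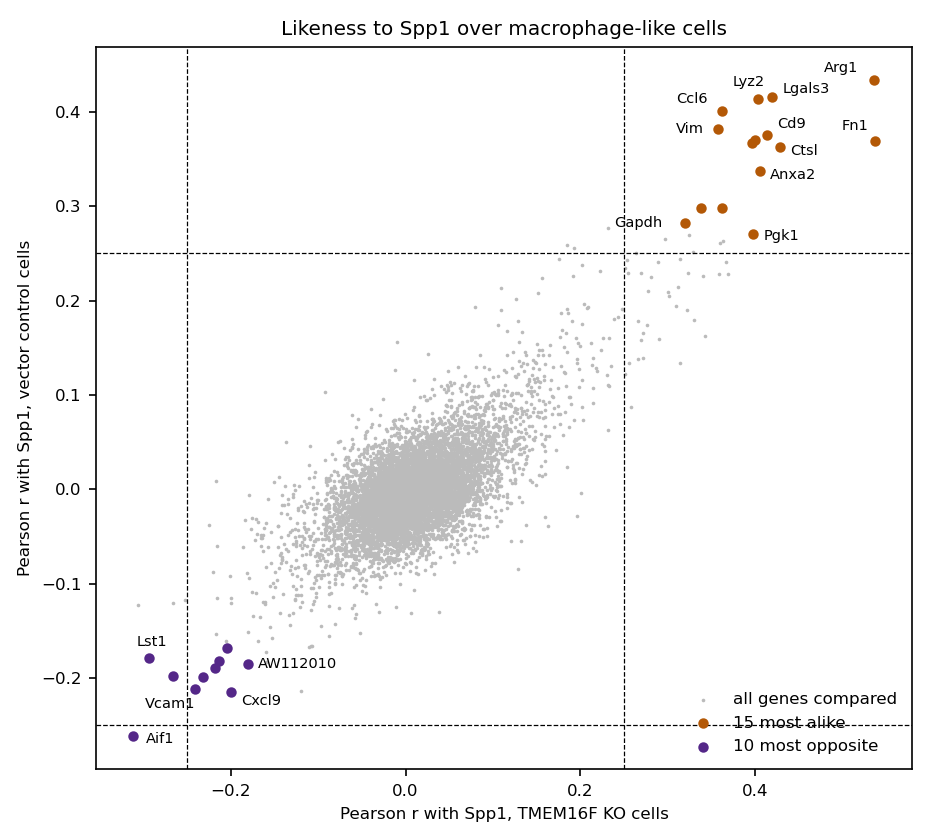
Pearson r with Spp1 of each of 8253 genes over macrophage-like cells of the TMEM16F KO library (x axis) and the vector control library (y axis); grey points are genes, orange the 15 most alike, purple the 10 most opposite, and dashed lines mark 0.25 on either side of 0. The coloured genes were chosen by the weaker r of both libraries, so they lie at the same end in both by construction. Arg1 lies at 0.54 and 0.43 and Aif1 at -0.31 and -0.26.

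The macrophage-like cells of each library were also put in 5 equal groups by Spp1. The genes above were picked by their r with Spp1 over these same cells. A rise or fall over the groups was therefore largely fixed in advance, and the levels only describe its size. Not every gene moved in steps: Ccl6 stood at 972 CPM in the lowest and 706 CPM in the next group of TMEM16F KO cells. Mmp12 stood at 255 CPM in the lowest and 1914 CPM in the highest group of TMEM16F KO cells, and at 165 and 1566 CPM in vector control cells. Arg1 stood at 894 and 3917 CPM in TMEM16F KO cells and at 1300 and 3845 CPM in vector control cells. Cxcl9 ran the other way, with 1472 CPM in the lowest and 382 CPM in the highest group of TMEM16F KO cells, and 1718 and 638 CPM in vector control cells. C1qa differed little over the groups, with 5094 and 4831 CPM in TMEM16F KO cells and 5540 and 4501 CPM in vector control cells. The group highest in Spp1 was also deeper, with a median of 14784 UMIs against 7673 in the lowest group of TMEM16F KO cells, and 10262 against 5962 in vector control cells. The part of depth in these differences was not tested.

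**Figure D4:**
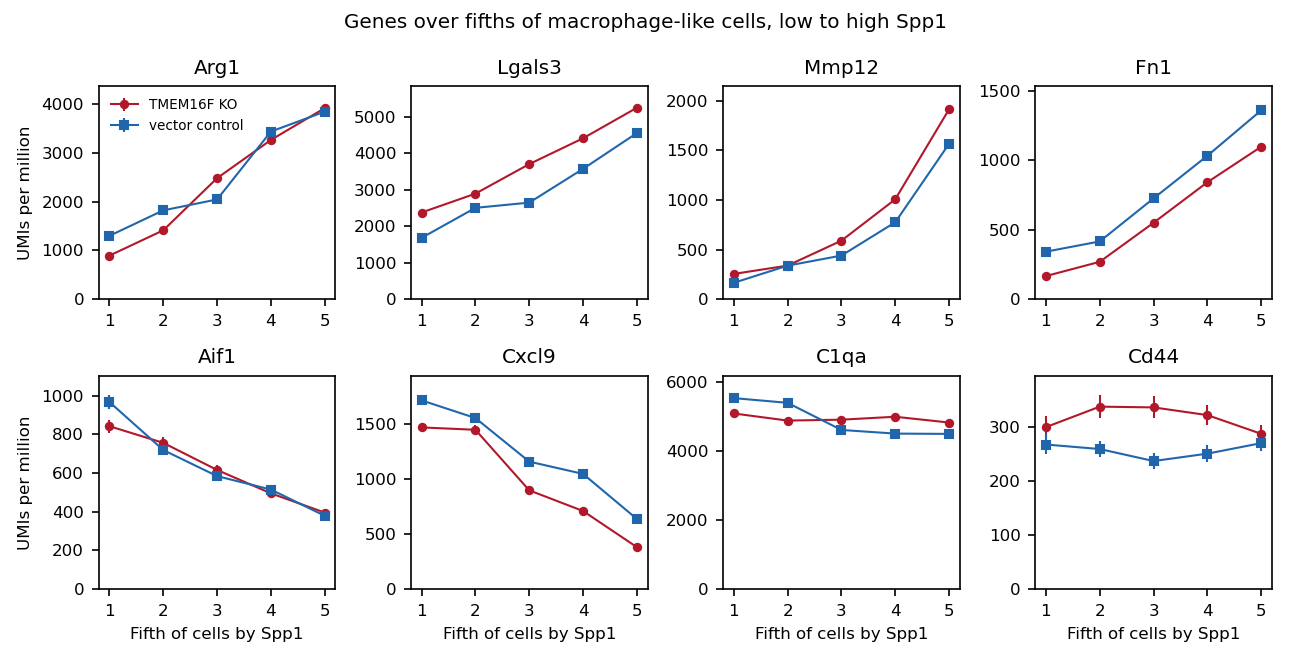
Levels of 8 genes (CPM, linear axes from 0) in the 5 equal groups of macrophage-like cells ordered from low to high Spp1, TMEM16F KO (red circles) and vector control (blue squares), with 95% Poisson intervals (counting error only). Arg1, Lgals3, Mmp12 and Fn1 are higher and Aif1 and Cxcl9 lower in group 5 than in group 1 in both libraries, while C1qa and Cd44 differ less between the groups. Arg1, Lgals3, Mmp12, Fn1, Aif1 and Cxcl9 are among the genes picked by their r with Spp1 over these same cells. C1qa was among the genes that sorted cells into the class.

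The genes most like Spp1 mostly stood at closer levels in the tumours than Spp1 itself. Of the 15 genes most like it, 1 was at least 1.5-fold higher in TMEM16F KO macrophage-like cells and 0 were as much lower. Of all genes measured in the class, 4.05% were higher and 3.82% lower. The 15 had a median log2 ratio of 0.24 beside 0.00 over all genes measured. The higher gene was Ctsl, a lysosomal protease, at 1900 CPM in TMEM16F KO and 993 CPM in vector control cells, a ratio of 1.91 (1.88 to 1.95). Ccl6 lay just under, at 1828 and 1222 CPM. Arg1 had 2587 CPM in TMEM16F KO and 2554 CPM in vector control cells, a ratio of 1.01 (1.00 to 1.03). Fn1 was lower in the TMEM16F KO tumour, at 648 CPM against 798 CPM, a ratio of 0.81 (0.79 to 0.83).

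The 16 genes listed as companions of Spp1 in tumour macrophages had a median r with Spp1 of 0.26 in TMEM16F KO and 0.17 in vector control cells. For 6 of the 16, r was at least 0.25 in both libraries. Of all 8253 genes, 0.254% reached 0.25 in both. Over all 8253 genes the median r was 0.007 in TMEM16F KO and -0.002 in vector control cells. The 6 were all among the 15 genes most like Spp1, and the list was chosen with earlier results of these data known. Of these 16, 5 were at least 1.5-fold higher and 1 as much lower in TMEM16F KO macrophage-like cells, where 4.05% of all genes were higher and 3.82% lower. Fabp5, a fatty acid carrier, had 1810 CPM in TMEM16F KO and 885 CPM in vector control cells, a ratio of 2.04 (2.01 to 2.08). Gpnmb, a lysosomal glycoprotein, had 21.8 and 10.1 CPM, a ratio of 2.16, Pf4, a chemokine, 3062 and 1867 CPM, a ratio of 1.64, and Vegfa, the vessel growth factor, 189 and 121 CPM, a ratio of 1.56. Ctsl was the other. Lpl, which splits triglycerides, was lower, at 25.4 CPM in TMEM16F KO and 47.1 CPM in vector control cells, a ratio of 0.54 (0.48 to 0.60). Of the 5 higher genes, Ctsl was the only gene also among the 15 most like Spp1.

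The 11 measured genes of the C1q programme had a median r with Spp1 of -0.008 in TMEM16F KO and -0.075 in vector control cells. In TMEM16F KO macrophage-like cells 0 of the 11 were 1.5-fold higher and 1 lower. Beside this count and those of the lists below stand 4.05% of all genes of the class higher and 3.82% lower. The median r with Spp1 over all genes was 0.007 in TMEM16F KO and -0.002 in vector control cells. C1qa had 4934 CPM in TMEM16F KO and 4889 CPM in vector control cells. C1qa, C1qb, C1qc and Mrc1 of this list were among the markers that sorted cells into the class, so their levels and r were partly set by the sorting. The lower gene was Cx3cr1, the fractalkine receptor, with 33.5 CPM in TMEM16F KO and 107 CPM in vector control cells, a ratio of 0.31 (0.28 to 0.34). The 13 measured hypoxia and glycolysis genes had a median r with Spp1 of 0.21 in TMEM16F KO and 0.19 in vector control cells. Of these 13, 3 were 1.5-fold higher in TMEM16F KO cells. Hilpda, a lipid droplet protein, had 438 CPM in TMEM16F KO and 199 CPM in vector control cells, a ratio of 2.20 (2.12 to 2.29), and Hmox1, the haem-degrading enzyme, 484 and 276 CPM, a ratio of 1.75; Vegfa was the other. Aldoa, with 1248 CPM in TMEM16F KO and 1289 CPM in vector control cells, and Ldha, with 1151 and 1253 CPM, did not stand higher. The 10 genes induced by tissue dissociation had a median r with Spp1 of -0.13 in TMEM16F KO and -0.03 in vector control cells. In the same class 1 of them was 1.5-fold higher and 2 were lower in the TMEM16F KO tumour: Egr1 had 227 and 135 CPM, Hspa1a 124 and 225 CPM and Hspa1b 100 and 205 CPM in TMEM16F KO and vector control cells. Cell cycle genes were lower too, 10 of 12 by 1.5-fold, such as Top2a with 22.5 CPM in TMEM16F KO and 54.3 CPM in vector control cells. The part of these lists in the Spp1 difference was not tested.

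Of 11 measured factors tied to Spp1 transcription, 0 had r of at least 0.25 with it in macrophage-like cells of both libraries. Of all 8253 genes 0.254% did, so a count of 0 says little about the factors. In this class, where 4.05% of genes were higher and 3.82% lower, 1 of the 11 stood at least 1.5-fold higher in TMEM16F KO cells and 0 lower. That was Mitf, with 65.6 CPM in TMEM16F KO and 41.7 CPM in vector control cells, a ratio of 1.57 (1.44 to 1.72). Runx1 had 194 and 156 CPM and Spi1 443 and 445 CPM in TMEM16F KO and vector control cells.

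The same leading partner was found in the other phagocytes. In monocyte-like cells, 47 of 7722 genes (0.609%) reached r of 0.25 with Spp1 in both libraries over 552 TMEM16F KO and 452 vector control cells, and 6 (0.0777%) lay as far below 0. Arg1 led, with 0.53 in TMEM16F KO and 0.51 in vector control cells, followed by Ctsl with 0.44 and 0.45 and Pdpn, which encodes podoplanin, with 0.44 and 0.45. In unresolved phagocyte-like cells it was 10 of 6544 genes (0.153%), again led by Arg1 with 0.39 in TMEM16F KO and 0.40 in vector control cells. The r of Spp1 with the log of a cell's UMI total was 0.40 in TMEM16F KO and 0.42 in vector control monocyte-like cells. In unresolved phagocyte-like cells it was 0.23 and 0.26, and the part of depth in these likenesses was not tested. Likeness outside the macrophage-like class was added after the data had been seen.

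Cd44 was spread over all leukocytes and differed less between the tumours. Over all kept cells it had 17533 UMIs in TMEM16F KO and 13102 in vector control cells, or 352 and 283 CPM, a ratio of 1.25 (1.22 to 1.27). Neutrophil-like cells, though few, were highest in both libraries, with 906 CPM (765 to 1066) in TMEM16F KO and 1290 CPM (1033 to 1591) in vector control cells. Unresolved phagocyte-like cells followed with 558 CPM in TMEM16F KO and 382 CPM in vector control cells, a ratio of 1.46 (1.35 to 1.58). DC-like cells were lowest in both, with 130 and 103 CPM, a ratio of 1.26 (0.97 to 1.64). Between these, the intervals of neighbouring classes mostly overlapped.

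Macrophage-like cells had 315 CPM of Cd44 in TMEM16F KO and 257 CPM in vector control cells, a ratio of 1.22 (1.18 to 1.27). Monocyte-like cells had 371 and 364 CPM, a ratio of 1.02 (0.95 to 1.09). CD8 T-like cells had 323 CPM in TMEM16F KO and 244 CPM in vector control cells, a ratio of 1.32 (1.24 to 1.41), and after thinning to 2000 UMIs 43.9% of TMEM16F KO and 36.8% of vector control cells had a UMI (74.1% and 68.9% unthinned). CD4 T-like cells had 351 CPM in TMEM16F KO and 188 CPM in vector control cells, a ratio of 1.87 (1.42 to 2.48) over 113 TMEM16F KO and 77 vector control cells, the class where 30.6% of genes were 1.5-fold higher. NK-like cells had 302 CPM in TMEM16F KO and 180 CPM in vector control cells, a ratio of 1.68 (1.37 to 2.06), the class where 20.2% were. Treg-like cells had 325 and 302 CPM, a ratio of 1.07 (0.91 to 1.27). Of the 8 classes compared, 0 had a Cd44 ratio below 1, but the intervals of monocyte-like, Treg-like and DC-like cells included 1. CD4 T-like and NK-like cells were the 2 past 1.5. Among the classes not compared, neutrophil-like cells, highest in Cd44, had a ratio of 0.70 (0.54 to 0.93). Stroma-like cells had 0.81 (0.64 to 1.01), and T-like cells with no clear subset 1.20 (1.04 to 1.39). In macrophage-like cells of under 4000 UMIs the ratio was 2.11, with 669 CPM in TMEM16F KO and 317 CPM in vector control cells, and in the 3 deeper bins it lay between 1.08 and 1.26.

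Among T cells, Cd44 was set beside genes of activation and of naive or memory state. In CD8 T-like cells 4 of 10 such genes, Cd44 among the 10, were at least 1.5-fold higher in the TMEM16F KO tumour and 0 lower, where 5.91% of genes were higher and 5.84% lower. Il7r, the interleukin-7 receptor, had 156 CPM in TMEM16F KO and 98.6 CPM in vector control cells, a ratio of 1.58, and Tcf7, a factor of memory-like T cells, 20.7 and 11.4 CPM, a ratio of 1.82. Il2rb, an activation receptor, had 359 and 350 CPM, a ratio of 1.03. CD8 T-like cells with a Gzmb UMI had 326 CPM of Cd44 in TMEM16F KO and 239 CPM in vector control cells, and cells without had 296 and 261 CPM. Sik3, a kinase gene, and Spag9, a scaffold gene of the JNK pathway, were the 2 of 7849 genes (0.0255%) with r of at least 0.25 with Cd44 over CD8 T-like cells of both libraries, Sik3 at 0.27 in TMEM16F KO and 0.27 in vector control cells.

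In macrophage-like cells Cd44 and Spp1 did not go together, with r of 0.06 in TMEM16F KO and 0.05 in vector control cells. Over the 5 groups of cells by Spp1, Cd44 lay between 288 and 338 CPM in TMEM16F KO and between 237 and 271 CPM in vector control cells. The genes most like Cd44 were others. Zeb2, a transcription factor of macrophages, had r of 0.35 in TMEM16F KO and 0.31 in vector control cells, and the scaffold gene Iqgap1 had 0.30 and 0.30. Fndc3b, Gab2, Atp2b1, Spag9, Dock10, Alcam, Dennd4a and Sik3 completed the 10 highest, and 27 genes (0.327%) reached 0.25 in both libraries. Of the 10, 0 were 1.5-fold higher or lower in the TMEM16F KO tumour.

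Osteopontin's other receptors are integrins, and their transcripts differed more by cell type than by tumour. Itgav, the alpha chain of the RGD-binding integrins, had 312 CPM in TMEM16F KO and 403 CPM in vector control Treg-like cells, 225 and 231 CPM in CD8 T-like cells, and 45.9 and 43.9 CPM in macrophage-like cells. Its beta partner Itgb5 had 78.1 CPM in TMEM16F KO and 83.6 CPM in vector control macrophage-like cells, but at most 16.3 CPM in a lymphocyte class. Itgb1 was found in every class, at 164 CPM in macrophage-like cells of both tumours and 318 CPM in TMEM16F KO and 330 CPM in vector control NK-like cells. Itgb3 was found in lymphocytes, with 65.3 CPM in TMEM16F KO and 22.7 CPM in vector control NK-like cells and 30.6 and 21.3 CPM in Treg-like cells, against 1.23 and 0.56 CPM in macrophage-like cells. Itga4, part of an integrin that binds the site exposed by cleavage, had 166 CPM in TMEM16F KO and 120 CPM in vector control NK-like cells, and 35.2 and 37.1 CPM in macrophage-like cells. Of the 7 integrin genes measured in macrophage-like cells, 0 were 1.5-fold higher or lower, where 4.05% of all genes were higher and 3.82% lower. None of the 7 had r of at least 0.25 with Spp1 in both libraries, where 0.254% of all genes did.

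**Figure D5:**
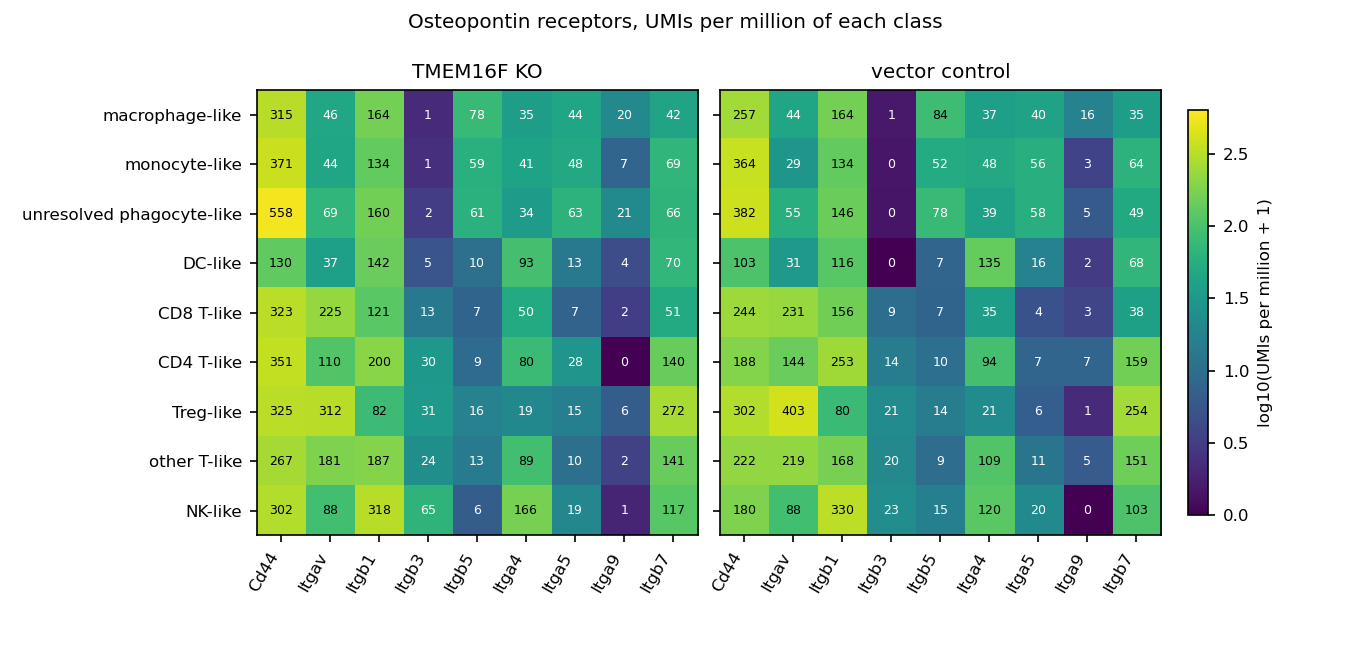
Cd44 and 8 integrin genes in 9 cell classes, TMEM16F KO left and vector control right; numbers are CPM and the colour is log10 of that value plus 1. Itgav stands out in Treg-like and CD8 T-like cells and Itgb5 in the phagocytes in both libraries.

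Of the 8 listed proteases that cleave osteopontin, 3 were measured in macrophage-like cells and 0 of them were 1.5-fold higher or lower, with a median log2 ratio of 0.45 beside 0.00 over all genes. In CD4 T-like cells 3 of 4 measured were 1.5-fold higher in the TMEM16F KO tumour and 0 lower, where 30.6% of genes were higher and 18.3% lower. In Treg-like cells 2 of 4 were higher and 0 lower, where 14.7% of genes were higher and 13.3% lower. In NK-like cells 1 of 4 was higher and 2 were lower, where 20.2% of genes were higher and 15.6% lower. In macrophage-like cells Mmp12 had 938 CPM in TMEM16F KO and 689 CPM in vector control cells, a ratio of 1.36 (1.33 to 1.39), and Ctsd, a lysosomal protease, 1124 and 783 CPM, a ratio of 1.44. Plau, the urokinase gene, had 47.7 and 60.2 CPM, a ratio of 0.79. Tgm2, which crosslinks osteopontin, had 166 CPM in TMEM16F KO and 159 CPM in vector control cells, and Fam20c, the kinase of secreted phosphoproteins, 24.6 and 25.4 CPM. The 5 measured genes of CD44 shedding and cleavage included Adam10, with 76.7 and 91.8 CPM, and Mmp14, with 102 and 89.5 CPM in TMEM16F KO and vector control cells, and 0 of them passed 1.5-fold.

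Other CD44 ligands were divided between cell types. Has1, a hyaluronan synthase, stood at 212 CPM in TMEM16F KO and 194 CPM in vector control stroma-like cells and at 0.22 and 0.61 CPM in macrophage-like cells. Of the 6 ligand and hyaluronan genes measured in macrophage-like cells, 2 were 1.5-fold higher and 1 lower, where 4.05% of all genes were higher and 3.82% lower. Tnfaip6, which binds hyaluronan, had 20.3 CPM in TMEM16F KO and 10.2 CPM in vector control cells, a ratio of 1.98 (1.67 to 2.37), and Vcan, the proteoglycan versican, 7.37 and 3.98 CPM, a ratio of 1.85. Hmmr, a hyaluronan receptor and mitotic protein, was lower, with 6.08 CPM in TMEM16F KO and 14.8 CPM in vector control cells, a ratio of 0.41. Srgn, the proteoglycan serglycin, which binds CD44, had 3470 and 2556 CPM, a ratio of 1.36, and r of 0.36 and 0.30 with Spp1. Of 8 measured partners of CD44, 0 passed 1.5-fold in that class; Cd74, the MIF receptor that signals with CD44, had 10398 CPM in TMEM16F KO and 11058 CPM in vector control cells, and the ERM linker Msn 303 and 300 CPM.

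Over the 22 levels given by 11 classes in 2 libraries, the genes most like Spp1 were S100a1 (r of 0.87), Rnf13 (0.86), Vegfa (0.82), Tmem37 (0.81) and Lrpap1 (0.81). S100a1 had 114 CPM in TMEM16F KO and 107 CPM in vector control macrophage-like cells, and 17.2 and 11.8 CPM in Treg-like cells. Those most like Cd44 were Svil (0.91), Atp2b1 (0.91), E230032D23Rik (0.91), Srxn1 (0.90) and Adipor1 (0.89). Atp2b1, a calcium pump, was also among the 10 genes most like Cd44 over macrophage-like cells. Classes of a library share depth and free RNA, and the neutrophil-like class, with 43 TMEM16F KO and 19 vector control cells, sets the upper end for Cd44.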

How the data were processed

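Droplet single-cell RNA was counted in 2 libraries of MC38 tumour tissue, 1 per group. The deposited matrices hold UMI counts per gene and barcode, for which the file headers name Cell Ranger 8.0.0, and Seurat 3.1.1 and the mouse build mm10 are named in the submitters' processing notes. The sources used here do not say whether barcodes or doublets were removed before deposit. No clusters were made and no doublet caller was run. Each kept barcode was classed by fixed UMI thresholds on marker genes, and barcodes carrying T cell or stromal together with phagocyte markers were set apart. Class names were rebuilt here and may differ from the study's.

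UMIs were summed per class and library and given as CPM, with exact Poisson intervals, exact conditional binomial intervals for ratios and Clopper-Pearson intervals for shares. Genes at 5 CPM or more in either library were counted past 1.5-fold. In macrophage-like cells 4.05% of 8945 genes were higher and 3.82% lower, the shares to set beside every such count in that class. PCR duplicates were already collapsed by UMI, but cells are not replicates, so the intervals say nothing of other tumours. Likeness is Pearson r of log(1 + UMIs per 10000) over cells, for genes seen in at least 5% of the cells of each library; the 15 genes highest for Spp1, the 10 lowest, and the 10 highest for Cd44, by the weaker of both libraries, are named. From the listed pathways, counts over all members and chosen examples are given. The steps were tested on simulated data. The members, gene lists and examples were chosen with earlier results of these data known. Python 3.11.15, numpy 2.4.6, scipy 1.17.1, pandas 2.3.3 and matplotlib 3.10.9 were used.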

Additional observations from a re-analysis of the deposited data

Results flagged for a closer look

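The Spp1 ratio of TMEM16F KO over vector control was 2.08 in macrophage-like cells and 0.51 in NK-like cells, so the 2 classes lay on opposite sides of 1. This difference between classes was not tested. The NK-like value rests on few cells: without the cell richest in Spp1 of each library it was 0.95.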

How the results depend on the processing

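No paired analysis was possible because each group holds 1 library. Every ratio named here is TMEM16F KO over vector control, and every alternative named kept it above 1 for Spp1 and Cd44 over all kept cells and in macrophage-like and CD8 T-like cells. For Spp1 in macrophage-like cells (2.08) it was 2.31 under a stricter marker gate, 1.77 without the 5% of barcodes with the highest totals, 1.81 after thinning to 2000 UMIs, 2.00 without mitochondrial, ribosomal protein and haemoglobin genes in the total, and 1.69 as a mean over cells. Under 3 alternatives chosen after seeing the data it was 2.12 without the 3 cells richest in Spp1 of each library, 1.65 with 4 bins of UMI total weighted alike, and 1.80 over all phagocyte-like cells. Over all kept cells (1.78) Spp1 gave 1.52 without the highest totals, 1.55 thinned, 1.72 without those genes, 1.42 as a mean over cells and 1.81 without the 3 richest cells.

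Cd44 in macrophage-like cells (1.22) gave 1.15 under the stricter gate, 1.30 thinned, 1.18 without those genes, 1.35 as a mean over cells and 1.34 with weighted bins. Over all kept cells (1.25) Cd44 gave 1.30 thinned, 1.20 without those genes and 1.31 as a mean over cells. In CD8 T-like cells (1.32) its 7 alternatives lay between 1.27 and 1.41. The 21 genes going with Spp1 became 12 after thinning, all among the 21, where 3873 genes were common enough to test, and 19 to 31 otherwise. The other settings, no filter on barcodes and at least 500 genes with under 10% mitochondrial UMIs, moved these ratios by less than counting error.

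Alternatives for smaller classes were all chosen after seeing the data. Spp1 in NK-like cells (0.51) turned to 1.23 under the stricter gate and to 1.16 without the 3 richest cells of each library; the cause was not tested beyond these cells. In DC-like cells the 4 alternatives lay between 1.88 and 3.63, and for Spp1 in CD8 T-like cells between 1.61 and 1.86. With 1 library per group, depth within a library limits only counting error.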
